A study of Solanum tuberosum with 8 samples.

Results

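The probes described here are filed under the photosynthetic electron transport chain and were measured in potato (*Solanum tuberosum*) leaves. The chain holds both photosystems with their antennae, the cytochrome b6/f complex, the soluble electron carriers and the chloroplast ATP synthase. The probes were taken from the study's list of probes that changed with drought in wild-type (WT) or *Stpfld252* plants. Those that the MapMan ontology, a plant gene catalogue arranged in bins, files under the light reactions were kept. That list held 107 light-reaction probes. The 16 probes of an antenna contig group and its relatives were set aside, which left 91 members of 42034 potato probes on the array. They fall into 38 probes of photosystem II (PSII), 21 of photosystem I (PSI), 29 of electron carriers and 3 of ATP synthase. The 91 members come from 80 contigs or single sequences, and 18 of them share 7 contigs. A shared contig number does not always mean a shared gene: MICRO.1823.C3 is described as a PSI antenna protein and MICRO.1823.C4 as the PSI subunit psaK. Sequences listed apart can carry the same description, as PPCBL09TH and MICRO.1823.C3 do. The number of separate genes is therefore not known. For 8 members the list gives no sequence match, and their place in the chain rests on the bin alone. Some other members are described as proteins outside the chain, such as expansins. They count in the values given for all 91.

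Expression was measured with 1-colour Agilent arrays in 4 groups of 2 arrays. WT and *Stpfld252* potatoes of the cultivar Solara were grown from tuber slices for 4 weeks, and each line was then either kept watered (control) or left without water for 3 days (drought). *Stpfld252* is 1 transgenic line that makes a cyanobacterial flavodoxin, an electron carrier that can stand in for ferredoxin. The constitutive CaMV 35S promoter drives the transgene in all tissues, and the transit peptide of pea ferredoxin-NADP+ reductase takes the protein into plastids. WT plants were not transformed. Leaves of the fifth node from 10 plants of each genotype and treatment were pooled, and the replicates of a group are pools, so the values carry no spread between single plants.

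In photosynthesis, light caught by the antenna proteins drives electrons from water through PSII, plastoquinone, the cytochrome b6/f complex and plastocyanin to PSI, which passes them to ferredoxin. Ferredoxin hands them to ferredoxin-NADP+ reductase (FNR) to make NADPH, and ATP synthase uses the proton gradient built on the way. Electrons can also return from PSI to the plastoquinone pool (cyclic flow) or leave it to oxygen through a plastid oxidase (chlororespiration). Under water shortage the stomata close, carbon dioxide becomes scarce and the carriers are prone to pass electrons to oxygen instead.

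A level below is the background-corrected, quantile-normalized log2 intensity of a probe on an array, and a difference of 1 on this scale is 2-fold. Levels were compared only within a probe. All 91 members passed the filter on dim probes, 90 were well above background on all 8 arrays, and none was saturated. Between 77.8% and 80.7% of all potato probes were well above background on each array, and the typical SD between replicate arrays ranged from 0.0874 to 0.138 over the groups. The 4 arrays of droughted plants were hybridised on one slide and the 4 of watered plants on the other, so that drought cannot be told apart from the slide. Comparisons of the lines lay within a slide, where *Stpfld252* always took positions 1 and 2 and WT positions 3 and 4, so position and genotype cannot be told apart. Of the 8 Rubisco small subunit probes, a leaf marker, 7 were well above background on all arrays. The contig of patatin, the tuber storage protein, also gave signal: 4 of its 20 probes were well above background on every array, 6 on none, and its summed level ran from 14.05 to 14.33 in WT and from 14.64 to 14.87 in *Stpfld252*. Of its 14 probes tested, 7 passed the threshold as higher in *Stpfld252* on average and none as lower. The part of this difference in the values below was not tested.

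Most members were lower in WT plants without water. In the fit across 36435 probes (limma, adjusted p under 0.05 and over 2-fold), 70 of the 91 members passed as lower in WT drought, 10 as higher and 11 did not pass. Of all probes tested, 10.3% passed as lower and 8.48% as higher. The members' median WT change was -1.32 on the log2 scale (2.49-fold lower) against 0.04 over all probes. In *Stpfld252*, 13 members passed as lower, 18 as higher and 60 did not pass, with 8.14% and 5.88% of all probes passing, and the median was -0.31. These contrasts chose the members, so the counts are a description and nothing was tested with them. Of the 70 members that were lower in WT, 11 also passed as lower in *Stpfld252* and 59 did not pass there, and 68 of the 70 changed less in *Stpfld252* than in WT. Of the 10 members that were higher in WT, 9 also passed as higher in *Stpfld252*, and 4 changed less there than in WT. A further 9 passed as higher in *Stpfld252* alone. The sets of 70 and 10 were picked by their WT change, which favours a smaller change in the other line. The standard error of a single drought change was 0.0892 at the median member and at most 0.237.

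**Figure D1:**
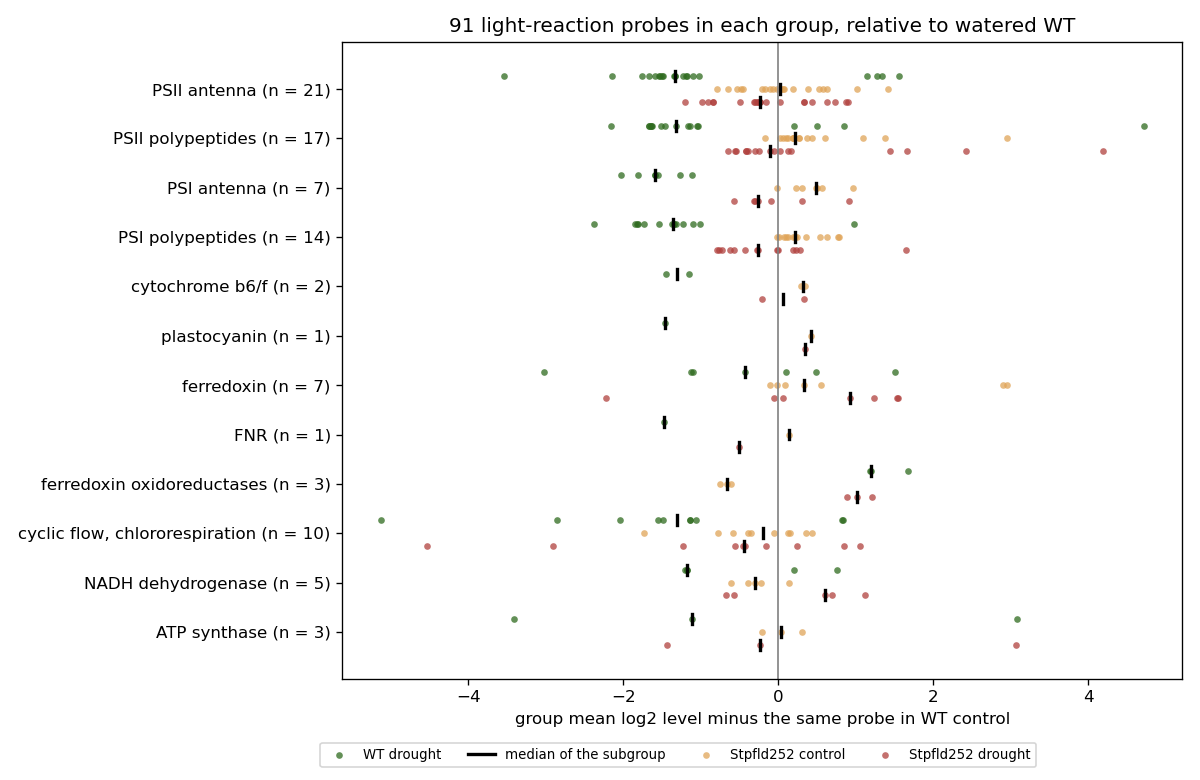
Group mean log2 level of each of the 91 probes in WT drought, Stpfld252 control and Stpfld252 drought, minus the mean of the same probe in WT control, by place in the electron transport chain. Each point is 1 probe and each black bar the median of its subgroup. In 10 of the 12 subgroups the WT drought median lies below -1, while no Stpfld252 median does.

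**Figure D2:**
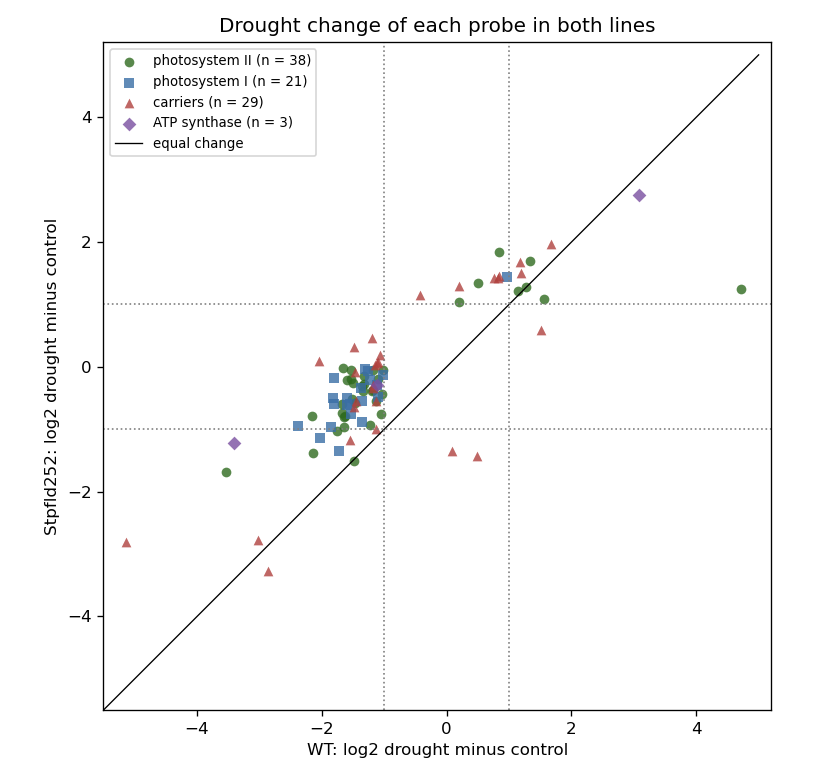
Drought change of each member in WT (horizontal axis) and Stpfld252 (vertical axis), both as log2 drought minus control, with dotted lines at 2-fold and a solid line of equal change. The members were chosen on these changes. Most points sit left of the 2-fold line for WT and between the 2-fold lines for Stpfld252.

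The comparison of the lines over both treatments was not used to choose the members. It is the mean of the difference between *Stpfld252* and WT under control and under drought. In this balanced design its measurement error is uncorrelated with that of the drought changes if all groups share 1 error. The fit assumes this, but the typical replicate SD was 0.138 in WT control and 0.0874 in WT drought. It was 0.0885 in *Stpfld252* control and 0.126 in *Stpfld252* drought. The value of this comparison is also tied to the drought changes. A member that dropped less in *Stpfld252* from a like control level is also higher by this measure. The set of all probes given beside it was not chosen for a drought change. By this measure 78 of 91 members were higher in *Stpfld252*, with a median difference of 0.64 (1.56-fold) against -0.03 over all probes. With an adjusted p under 0.05, 72 members were higher and 9 lower, where 25.8% and 29.9% of all probes passed. With a 2-fold minimum as well, 17 members passed as higher, where 3.44% of all probes did. None passed as lower, where 2.11% did. None of the 9 members that were lower at an unadjusted limma p under 0.05 reached 2-fold. The standard error of this difference had a median of 0.0631.

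The difference between the lines lay mostly in the drought arrays. Under control, 7 members passed as higher in *Stpfld252* and 1 as lower, with a median of 0.14, where 3.99% and 2.09% of all probes passed. Under drought, 47 passed as higher and none as lower, with a median of 1.03, where 6.15% and 5.15% of all probes passed. Of 8 members lower there at an unadjusted limma p under 0.05, none reached 2-fold. These separate comparisons share arrays with the changes that chose the members. Taken with its sign, *Stpfld252* minus WT was higher under drought than under control for 83 of the 91 members. The same held for 18529 of the 36435 probes tested. Some of the 83 had a negative difference that shrank, such as bf_stolxxxx_0042g10.t3m.scf, from -0.79 under control to -0.43 under drought. This shift is the difference of the drought changes that chose the members. Both *Stpfld252* drought arrays lay above both WT drought arrays for 79 members, as they did for 37% of all probes.

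**Figure D3:**
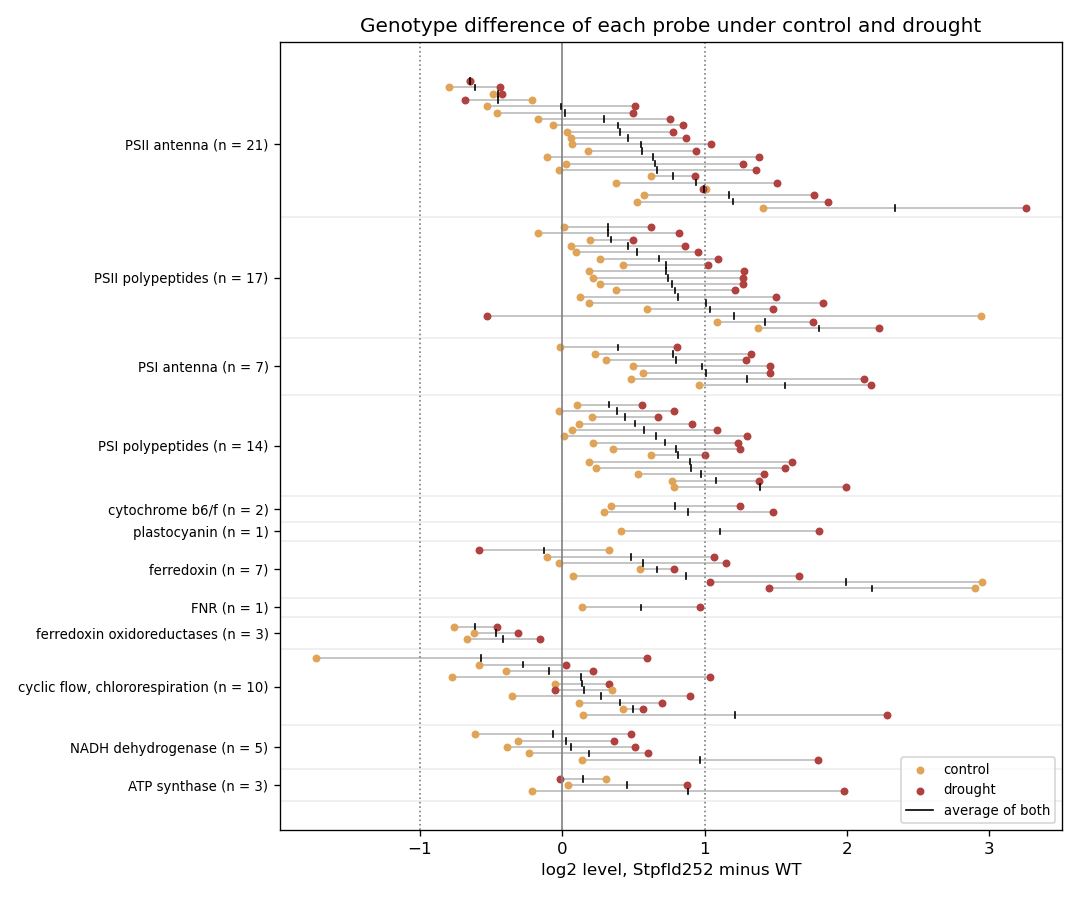
Difference between Stpfld252 and WT in log2 level for each of the 91 probes under control and under drought, joined by a line, with the average of both as a black tick and dotted lines at 2-fold. Every PSI probe has an average above 0, and the drought point lies right of the control point for 83 of the 91 probes.

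The light-harvesting antenna of PSII was represented by 21 probes. In WT, 17 passed as lower with drought and 4 as higher, and in *Stpfld252* 4 passed as lower and 4 as higher. The average difference between the lines had a median of 0.56. By it 3 probes passed 2-fold as higher in *Stpfld252*, where 3.44% of all probes did. CP24, a minor antenna protein that links the outer antenna to the PSII core, was seen by 3 probes that name its tomato genes Cab10A and Cab10B. Probe MICRO.4155.C3 (Cab10B) read 13.48 and 13.28 in WT control, 11.78 and 11.90 in WT drought, 13.89 and 13.91 in *Stpfld252* control and 13.74 and 13.68 in *Stpfld252* drought. WT drought was the only group that dropped away, and both *Stpfld252* groups lay above WT control on every array. *Stpfld252* was 2.29-fold higher on average (SE of the log2 difference 0.06, limma adjusted p = 1.1e-05). MICRO.4155.C4 (Cab10A), from the same contig, gave 1.17 ± 0.06 with the same adjusted p of 1.1e-05 in limma, and its WT change of -1.33 stood beside -0.14 in *Stpfld252*.

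Other antenna contigs held several probes that did not all move alike. Contig MICRO.4177 held antenna probes described as type I antenna protein or CP29, and also MICRO.4177.C6, described as a PSI-N subunit. Its antenna probe MICRO.4177.C9 changed by -1.59 in WT and -0.21 in *Stpfld252*, with an average difference of 0.67 ± 0.08 (limma adjusted p = 0.00033). Probes MICRO.4177.C1 and MICRO.4177.C2 had similar WT changes, -1.34 and -1.35, but average differences of 0.02 and -0.01 (limma adjusted p = 0.83 and 0.95). The sign turned with a larger background offset and in the deposited values for MICRO.4177.C1, and with other scalings for MICRO.4177.C2. Their levels were lower in *Stpfld252* than WT under control, by -0.46 and -0.53, and higher under drought, by 0.50 and 0.51. On contig MICRO.4180, probe MICRO.4180.C3 was 2.79-fold lower with drought in WT and 2.83-fold lower in *Stpfld252*, whereas MICRO.4180.C4 changed by -1.11 and -0.20. How far probes of 1 contig also bind each other's transcripts was not assessed. The probe cPRO2L10TH, described by a lemon antenna precursor, changed by -1.76 in WT and -1.02 in *Stpfld252*.

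The antenna bin also held probes whose descriptions do not name an antenna protein. MICRO.16601.C1, described as a putative alanine acetyl transferase, read 10.88 and 10.74 in WT control, 7.27 and 7.28 in WT drought, 12.22 and 12.21 in *Stpfld252* control and 10.47 and 10.59 in *Stpfld252* drought. Its groups did not overlap, and *Stpfld252* was higher in both treatments. With an average difference of 2.33 ± 0.06 (limma adjusted p = 4.7e-07) it had the largest value among the 91 members. The probe cSTB47B7TH, described as fructose-1,6-bisphosphatase, an enzyme of carbon fixation, changed by -1.53 in WT and -0.05 in *Stpfld252*. The unmatched probe bf_mxlfxxxx_0006c04.t3m.scf changed by -2.14 and -1.39.

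The 4 antenna-bin probes that were higher in both lines under drought were chosen for mention after their values were seen. MICRO.8209.C1 and POAC705TP match stress enhanced protein 2, a member of the antenna protein family that in Arabidopsis responds to high light. MICRO.8209.C1 changed by 1.15 in WT and 1.21 in *Stpfld252*, and POAC705TP by 1.27 and 1.28. Both were lower in *Stpfld252* on average, by -0.45 ± 0.05 for MICRO.8209.C1 and -0.65 ± 0.05 for POAC705TP (limma adjusted p = 0.00032 and 8.6e-05). The other two, ACDA03879D03.T3m.scf and bf_stolxxxx_0042g10.t3m.scf, have no match and were also lower in *Stpfld252*, with average differences of -0.45 and -0.61.

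Among the 17 probes for PSII polypeptides and assembly, 13 passed as lower in WT drought and 1 as higher, while in *Stpfld252* none passed as lower and 4 as higher. In *Stpfld252*, 12 were lower at an adjusted p under 0.05, where 26.2% of all probes were, each by less than 2-fold. All 17 were higher in *Stpfld252* on average at an adjusted p under 0.05, where 25.8% of all probes were. Of these, 5 passed 2-fold, where 3.44% of all probes did. Both counts include the unmatched bf_stolxxxx_0018c02.t7m.scf, whose difference was 2.94 under control but -0.52 under drought. The small core protein PsbY, MICRO.5278.C1, is shown with the primers that the study designed for its transcript, since it is 1 of 3 members that were chosen for quantitative PCR (both 20 bases, as listed):
psbY forward: gctagcgatattgcgatgat
psbY reverse: tgttgtaagctacccaaagc
Its probe read 14.74 and 14.74 in WT control, 13.19 and 13.24 in WT drought, 15.00 and 15.01 in *Stpfld252* control, and 14.57 and 14.41 in *Stpfld252* drought. The 4 groups did not overlap, and WT drought lay lowest. The WT change was -1.52 (2.87-fold lower) and the *Stpfld252* change -0.51 (1.43-fold lower). The average difference between the lines was 0.77 ± 0.06 (limma adjusted p = 3.9e-05).

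PsbW is another small PSII subunit, and the probe described by that name, MICRO.1149.C2, was higher in *Stpfld252* under both treatments. It read 10.17 and 10.15 in WT control, 8.51 and 8.53 in WT drought, 11.30 and 11.20 in *Stpfld252* control and 10.24 and 10.32 in *Stpfld252* drought. *Stpfld252* under drought lay at or above watered WT. Its average difference was 1.42 ± 0.05 (2.68-fold, limma adjusted p = 2e-06). MICRO.13164.C1 matches Arabidopsis At2g30570, described, like PsbW, as a 6.1 kDa protein of the PSII reaction center. It may be another PsbW probe, but it did not show the control difference of MICRO.1149.C2. The lines differed by 0.06 ± 0.08 under control, where their arrays overlapped, and by 0.86 ± 0.08 under drought, with *Stpfld252* higher and an average difference of 0.46 ± 0.06. The PSII protein on MICRO.2391.C2, matched to cotton, had the lowest WT change among PSII polypeptides, -2.15, beside -0.78 in *Stpfld252*.

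Extrinsic proteins of the water-splitting complex were lower in WT drought on all 5 of their probes. The complex protein 3 probe MICRO.81.C1 changed by -1.46 in WT and -0.58 in *Stpfld252*, and its average difference was 1.04 ± 0.05 (limma adjusted p = 6.3e-06). The other probe for this protein, cSTB45M24TH, changed by -1.67 and -0.59, with an average difference of 0.73 ± 0.08. The probes for the oxygen evolving protein with 23 kDa in its name, MICRO.1102.C1, POABK52TV and bf_ivrootxx_0037g11.t3m.scf, changed by -1.04, -1.64 and -1.63 in WT and by -0.43, -0.81 and -0.79 in *Stpfld252*. The assembly factor HCF136 (STMCU10TH) changed by -1.05 and -0.75, with an average difference of 0.34 ± 0.06.

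Thylakoid lumen proteins, which work on the inner side of the membrane, went both ways. The probe bf_mxlfxxxx_0008e01.t3m.scf read 11.65 and 11.68 in WT control and 9.96 and 10.04 in WT drought. In *Stpfld252* it stayed between 11.81 and 11.86 on all 4 arrays. Its change of -1.67 in WT stood beside -0.02 in *Stpfld252*, and the average difference was 1.01 ± 0.05 (limma adjusted p = 6.9e-06). It fell under 2-fold, to as low as 0.94, with median scaling, a larger background offset or WT drought replicate 1 left out. By contrast, the lumenal protein on MICRO.5498.C1 changed by 0.85 in WT and 1.84 in *Stpfld252*.

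PsbS, the 22 kDa protein of PSII that lets the antenna shed excess light as heat, was higher with drought in *Stpfld252*. Probe cPRO1H19TH read 8.92 and 8.75 in WT control, 9.12 and 8.94 in WT drought, 10.38 and 10.04 in *Stpfld252* control and 11.38 and 11.13 in *Stpfld252* drought. The WT groups lay next to each other, and every *Stpfld252* array lay above every WT array. The average difference was 1.80 ± 0.10 (3.48-fold, limma adjusted p = 1.4e-05). The other PsbS probe, MICRO.4182.C1, had a smaller average difference, 0.53 ± 0.06. Its drought changes were 0.49 in WT and 1.35 in *Stpfld252*, and its level under control differed by only 0.10 between the lines.

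A PSII-bin probe with no sequence match behaved differently from the rest. The probe bf_stolxxxx_0018c02.t7m.scf read 6.88 and 6.96 in WT control, 11.61 and 11.67 in WT drought, 9.86 and 9.87 in *Stpfld252* control and 11.01 and 11.22 in *Stpfld252* drought. It was high in every group but watered WT. The change was 4.72 in WT (26.3-fold) and 1.25 in *Stpfld252*, and the lines differed by 2.94 under control and -0.52 under drought.

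The 7 probes of the PSI antenna were all lower in WT drought, with changes from -2.03 to -1.12, and 1 passed as lower in *Stpfld252*. All 7 were higher in *Stpfld252* on average at an adjusted p under 0.05, by 0.40 to 1.57, where 25.8% of all probes were higher. The type III antenna protein on MICRO.5899.C2 read 11.40 and 11.40 in WT control, 10.10 and 10.16 in WT drought, 12.39 and 12.34 in *Stpfld252* control and 12.27 and 12.34 in *Stpfld252* drought. Both *Stpfld252* groups lay together above watered WT. The average difference of 1.57 ± 0.05 (limma adjusted p = 1.2e-06) was the largest among the PSI probes. LHCA5, a minor PSI antenna protein, was matched by MICRO.5425.C1, which changed by -1.81 in WT and -0.17 in *Stpfld252* and was 2.46-fold higher in *Stpfld252* on average.

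The other PSI antenna probes had negative changes in both lines. The cab-6A type I protein on MICRO.4519.C3 changed by -2.03 in WT and -1.13 in *Stpfld252*, and it was 1.01 ± 0.06 higher in *Stpfld252* on average (limma adjusted p = 1.5e-05), or 0.97 without WT drought replicate 2, under 2-fold. Probes MICRO.1823.C3 and PPCBL09TH carry the same tomato antenna match. They changed by -1.59 and -1.55 in WT and by -0.61 and -0.59 in *Stpfld252*, with average differences of 0.80 and 0.98. STMJK18TV, similar to a type II protein, had an average difference of 0.78, and cab-12 on MICRO.6229.C1 the lowest of the 7, 0.40 ± 0.06 (limma adjusted p = 0.0016).

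The PSI core was covered by 14 probes, of which 13 passed as lower in WT drought, while in *Stpfld252* 1 passed as lower and 1 as higher. All 14 were higher in *Stpfld252* on average at an adjusted p under 0.05, where 25.8% of all probes were. Of these, 2 passed 2-fold, where 3.44% of all probes did. PsaK, a core subunit that helps bind the antenna, is shown with its PCR primers (20 bases each):
psaK forward: aacaagatgacgaatggtgg
psaK reverse: cgcttacctacttcccctaa
The psaK probe MICRO.1823.C4 read 15.56 and 16.05 in WT control, 14.74 and 14.67 in WT drought, 16.57 and 16.59 in *Stpfld252* control and 15.95 and 16.22 in *Stpfld252* drought. Its watered WT arrays stood further apart than those of most members, and *Stpfld252* drought overlapped them. The WT change was -1.10 and the *Stpfld252* change -0.49, and the average difference was 1.08 ± 0.12 (2.11-fold, limma adjusted p = 0.00027). Without WT control replicate 1 it was 0.95, under 2-fold.

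Subunit III (PsaF), where plastocyanin docks, was seen by MICRO.3206.C2, which read 12.82 and 12.75 in WT control, 10.94 and 11.01 in WT drought, 13.60 and 13.54 in *Stpfld252* control and 12.92 and 13.02 in *Stpfld252* drought. Under drought *Stpfld252* lay above watered WT. Its average difference of 1.39 ± 0.05 (limma adjusted p = 2.8e-06) was the largest of the core. PsaH, on MICRO.9133.C1, had the lowest WT change of the core, -2.37 (5.19-fold lower), beside -0.95 in *Stpfld252*. The other two PsaH probes on that contig, MICRO.9133.C2 and MICRO.9133.C3, changed by -1.35 and -1.01 in WT.

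PsaD and PsaE, on the ferredoxin-docking side of PSI, showed the same direction. PsaD (bf_mxlfxxxx_0065f01.t3m.scf) changed by -1.54 in WT and -0.75 in *Stpfld252*. PsaE probe MICRO.1036.C1 changed by -1.32 and -0.03, and its partner on the contig, MICRO.1036.C8, by -1.35 and -0.89. Their average differences were 0.51 for PsaD, 0.66 for MICRO.1036.C1 and 0.33 for MICRO.1036.C8. Among other PSI subunits, reaction center V (PsaG, MICRO.9253.C1) changed by -1.85 and -0.97, subunit XI (PsaL, MICRO.4583.C3) by -1.37 and -0.35, and PsaN (MICRO.4177.C6) by -1.23 and -0.22. The thylakoid membrane phosphoprotein on MICRO.4857.C1 changed by -1.82 and -0.50. The PSI-bin probe that was higher with drought, MICRO.8413.C1, has no sequence match and changed by 0.98 in WT and 1.44 in *Stpfld252*.

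Between the photosystems, the cytochrome b6/f complex was covered by 2 probes. The Rieske iron-sulfur protein on PPCBS38TH, which takes electrons from plastoquinone, read 14.61 and 14.41 in WT control, 13.01 and 13.10 in WT drought, 14.88 and 14.82 in *Stpfld252* control and 14.31 and 14.30 in *Stpfld252* drought. WT drought stood far below the other groups. Its average difference was 0.79 ± 0.06 (limma adjusted p = 6.7e-05). MICRO.6435.C1, whose match has no name, changed by -1.15 in WT and 0.04 in *Stpfld252*, with an average difference of 0.89 ± 0.06.

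Plastocyanin, the copper protein that carries electrons to PSI, had 1 probe, MICRO.4322.C1. It read 6.91 and 6.76 in WT control, 5.48 and 5.26 in WT drought, 7.30 and 7.20 in *Stpfld252* control and 7.14 and 7.20 in *Stpfld252* drought. Both *Stpfld252* groups lay above watered WT and close to each other. The WT change was -1.47 (2.76-fold lower) and the *Stpfld252* change -0.08, and the average difference was 1.11 ± 0.07 (limma adjusted p = 2.5e-05). Over the alternatives it ran from 0.69, with a background offset of 50, to 1.53, with Agilent's processed signal, scaled at each array's 75th percentile. It was under 2-fold with both larger offsets and in the deposited values.

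Ferredoxin I, the carrier that flavodoxin can replace, was targeted in the study by PCR primers of 22 bases:
Fd1 forward: agggctggttcttgctcatctt
Fd1 reverse: tcctgcagcttcttggtcatca
Its probe MICRO.11295.C1 read 13.70 and 13.51 in WT control, 12.47 and 12.54 in WT drought, 13.61 and 13.56 in *Stpfld252* control and 13.61 and 13.71 in *Stpfld252* drought. Watered plants of both lines overlapped, with a difference of -0.02 that turns positive with other scalings, and *Stpfld252* drought lay at or just above watered *Stpfld252*. The WT change was -1.10 (2.14-fold lower) and the *Stpfld252* change 0.07. Under drought the lines differed by 1.15, and the average difference was 0.57 ± 0.06 (limma adjusted p = 0.00031).

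**Figure D4:**
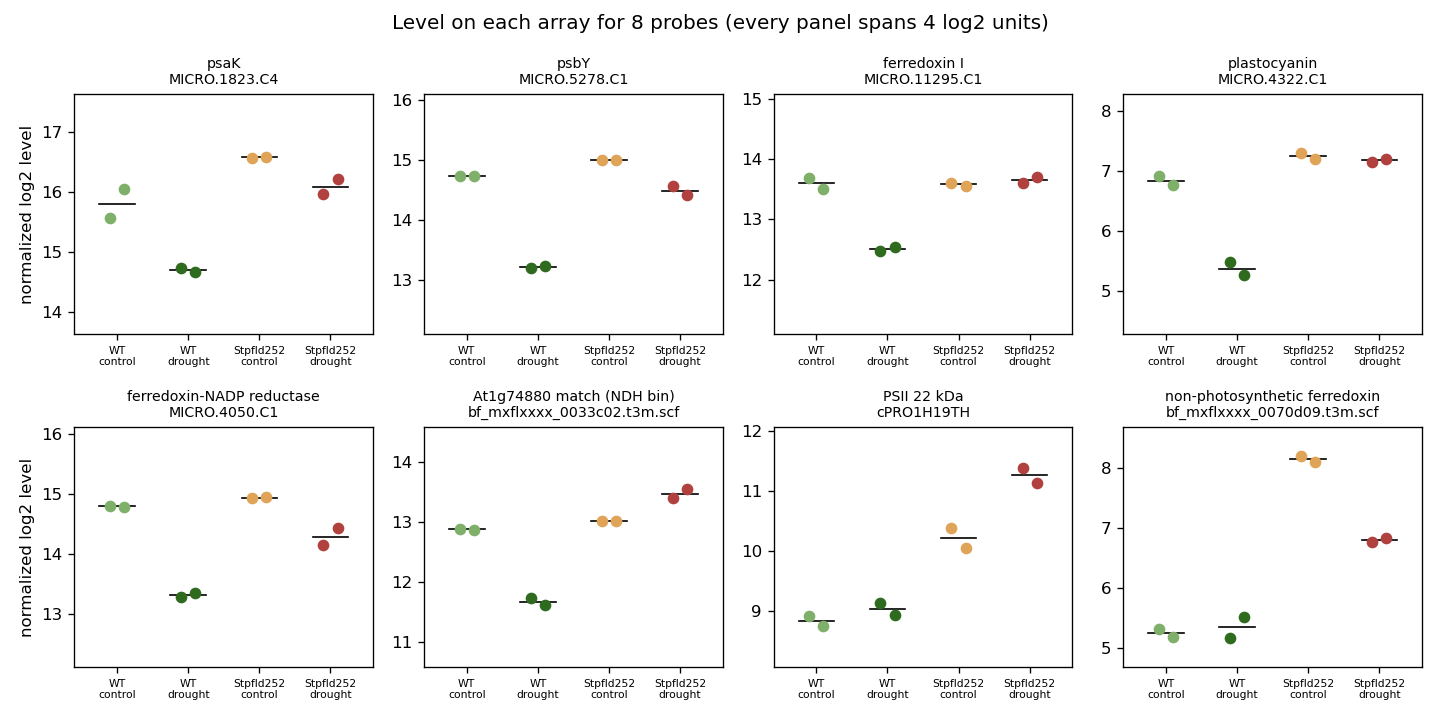
Normalized log2 level on each of the 8 arrays for 8 members, with a bar at each group mean. Each panel spans 4 log2 units, so that differences can be compared but levels cannot. For psbY, ferredoxin I and plastocyanin WT drought is the lowest group, and for the non-photosynthetic ferredoxin watered Stpfld252 is the highest.

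The other ferredoxin-bin probes did not follow ferredoxin I as a group. Both probes of a ferredoxin described as non-photosynthetic, a form known from roots and other non-green tissues, were far higher in *Stpfld252*. The probe bf_mxflxxxx_0070d09.t3m.scf read 5.33 and 5.19 in WT control, 5.18 and 5.53 in WT drought, 8.20 and 8.11 in *Stpfld252* control and 6.78 and 6.84 in *Stpfld252* drought. The WT groups overlapped, and all *Stpfld252* arrays lay above all WT arrays. The average difference was 2.18 ± 0.09 (4.52-fold, limma adjusted p = 2.8e-06), and over the alternatives it ran from 1.37, with a background offset of 50, to 2.61, with Agilent's processed signal, scaled at each array's 75th percentile. The change with drought was 0.09 in WT and -1.35 in *Stpfld252*.

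The other probe of this ferredoxin, MICRO.9842.C1, was not well above background on either watered WT array and on 1 of the 2 WT drought arrays. Its watered *Stpfld252* arrays read 7.19 and 7.06 against measured values of 4.04 and 4.32 in watered WT, a ratio of 7.71-fold. With drought the *Stpfld252* arrays read 5.79 and 5.62, a ratio of 2.88-fold to watered WT. The watered WT signal was not below the dimmest signal well above background on its arrays. Both ratios therefore use measured values, hold for a background offset of 0 and are no lower bounds. With an offset of 50 they were 2.72-fold and 1.47-fold. The fitted average difference, 1.99, ran from 0.93 with that offset to 3.69 with Agilent's processed signal, scaled at each array's 75th percentile.

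The remaining ferredoxin-bin probes moved in several directions. A putative ferredoxin matched to tomato, bf_mxflxxxx_0058h06.t3m.scf, changed by 1.51 in WT and 0.60 in *Stpfld252*, and its average difference of -0.13 did not pass (limma adjusted p = 0.11). MICRO.6185.C1, whose rice match has no name, changed by -3.02 and -2.77. MICRO.5835.C1 and cSTB41K8TH, both matched to Arabidopsis At3g16240, changed by -1.12 and -0.43 in WT and by 0.06 and 1.15 in *Stpfld252*, with average differences of 0.48 ± 0.09 and 0.87 ± 0.07. On cSTB41K8TH, *Stpfld252* drought at 9.44 and 9.59 was the only group above 8.42.

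FNR, which passes electrons from ferredoxin or flavodoxin to NADP+, had 1 probe, MICRO.4050.C1, described as the leaf-type isozyme. It read 14.80 and 14.78 in WT control, 13.28 and 13.34 in WT drought, 14.92 and 14.94 in *Stpfld252* control and 14.14 and 14.43 in *Stpfld252* drought. The groups did not overlap, and *Stpfld252* lost less than WT: -0.65 against -1.48. The average difference was 0.56 ± 0.07 (limma adjusted p = 0.00062). MICRO.609.C2 is described as the root-type isozyme of ferredoxin-NADP reductase, a different enzyme form filed outside the light reactions. It went the other way, at 2.14-fold and 1.86-fold higher with drought in WT and *Stpfld252* and an average difference of -0.75 ± 0.10. A thylakoid lumen protein also filed elsewhere, MICRO.1603.C1, changed by -1.18 and -0.83.

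The 3 probes of ferredoxin oxidoreductases were higher with drought in both lines and lower in *Stpfld252* than WT on average. MICRO.10180.C1 and cSTB48A12TH match HY2, which uses ferredoxin to make the phytochrome chromophore, a step of light sensing and not of electron transport itself. MICRO.10180.C1 read 9.10 and 9.02 in WT control, 10.17 and 10.31 in WT drought, 8.42 and 8.36 in *Stpfld252* control and 10.11 and 10.05 in *Stpfld252* drought. Watered *Stpfld252* was the lowest group. The 3 average differences were -0.41 ± 0.06 for MICRO.10180.C1, -0.61 ± 0.06 for cSTB48A12TH and -0.46 ± 0.05 for bf_arrayxxx_0073e07.t7m.scf, each with a limma adjusted p of at most 0.00095.

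Cyclic flow and chlororespiration were represented by 10 probes, 8 of which passed as lower in WT drought. In *Stpfld252*, 3 passed as lower and 2 as higher. The plastid quinol oxidase, which passes electrons from plastoquinone to oxygen, was lower with drought in both lines. Its probe bf_ivrootxx_0007e11.t3m.scf read 11.18 and 11.30 in WT control, 9.72 and 9.64 in WT drought, 11.18 and 11.20 in *Stpfld252* control and 10.07 and 9.95 in *Stpfld252* drought. Watered plants of both lines overlapped. The average difference of 0.14 ± 0.06 did not pass (limma adjusted p = 0.08). On the second oxidase probe, SDBN005H10u.scf, the change was -1.14 in WT, *Stpfld252* was 1.99-fold lower with drought, and the average difference was 0.50 ± 0.07.

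MICRO.5555.C2 matches Arabidopsis At4g11960, known there as PGRL1B, a thylakoid protein of cyclic flow. It read 12.91 and 13.03 in WT control, 11.92 and 11.90 in WT drought, 12.69 and 12.55 in *Stpfld252* control and 12.73 and 12.89 in *Stpfld252* drought. WT drought was the lowest group, and all *Stpfld252* arrays lay between it and watered WT. The average difference was 0.27 ± 0.06 (limma adjusted p = 0.0099, but 0.13 with median scaling). MICRO.8597.C1, a match to an Arabidopsis protein of no name, changed by -2.04 in WT and 0.10 in *Stpfld252*, and its average difference of 1.22 ± 0.07 was the largest of the bin.

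MICRO.9271.C1, matched to an unnamed Arabidopsis protein, changed by -1.13 and -0.55. POAE739TP and MICRO.8460.C1, of the same kind, were higher with drought, by 0.84 and 0.82 in WT and 1.45 and 1.43 in *Stpfld252*. The bin also held 3 probes described as other kinds of protein. Expansins loosen cell walls, and the expansin 2 probe MICRO.16156.C1 had the lowest WT change of all members, with 14.60 and 14.55 in WT control against 9.40 and 9.49 in WT drought. In *Stpfld252* it read 12.71 and 12.98 with water and 10.09 and 9.99 without. Watered *Stpfld252* lay below watered WT, by -1.73. The probe of expansin 11, MICRO.13185.C1, changed by -2.86 and -3.26. The antifreeze glycoprotein match, MICRO.12383.C1, changed by -1.49 in WT and 0.32 in *Stpfld252*. Without these 3 probes, 5 of the 7 others passed as lower in WT drought.

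The NADH dehydrogenase bin, a complex of the thylakoid that feeds electrons back to plastoquinone, had 5 probes. All 5 were higher in *Stpfld252* than WT under drought at an adjusted p under 0.05, and 4 were lower under control, where 25.8% and 22.1% of all probes were. The probe bf_mxflxxxx_0033c02.t3m.scf matches Arabidopsis At1g74880, known there as the subunit NdhO. It read 12.88 and 12.88 in WT control, 11.73 and 11.62 in WT drought, 13.01 and 13.02 in *Stpfld252* control and 13.40 and 13.55 in *Stpfld252* drought. Drought arrays were the lowest in WT and the highest in *Stpfld252*. The average difference was 0.97 ± 0.06 (limma adjusted p = 1.7e-05). MICRO.9084.C2 and bf_arrayxxx_0046h07.t7m.scf were 2.46-fold and 2.69-fold higher with drought in *Stpfld252*, beside 1.15-fold and 1.69-fold in WT. The unmatched cSTA16I11TH and the rice match bf_mxlfxxxx_0067c07.t3m.scf changed by -1.19 and -1.18 in WT and by -0.29 and -0.34 in *Stpfld252*.

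ATP synthase had 3 probes, each with its own pattern. The delta subunit, part of the stalk that holds the catalytic head, was seen by MICRO.4727.C1, which read 16.24 and 16.34 in WT control, 15.17 and 15.17 in WT drought, 16.28 and 16.38 in *Stpfld252* control and 16.01 and 16.08 in *Stpfld252* drought. Watered plants overlapped, and WT drought lay below all others. The average difference was 0.46 ± 0.05 (limma adjusted p = 0.00044). MICRO.3162.C1, whose Arabidopsis match has no name, read 12.14 and 12.16 in WT control, 8.82 and 8.67 in WT drought, 11.97 and 11.90 in *Stpfld252* control and 10.74 and 10.70 in *Stpfld252* drought. Its change was -3.41 in WT (10.6-fold lower) and -1.22 in *Stpfld252*.

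The ATPase beta subunit probe bf_mxflxxxx_0005c10.t3m.scf was higher with drought in both lines. Its levels were 6.13 and 6.10 in WT control, 9.16 and 9.22 in WT drought, 6.41 and 6.43 in *Stpfld252* control and 9.22 and 9.14 in *Stpfld252* drought. The drought arrays of both lines overlapped. The changes were 3.08 and 2.76, and the average difference was 0.15 ± 0.05 (limma adjusted p = 0.041), a call that most alternatives end, with adjusted p up to 0.48. The description, a match to a wild tobacco, does not say whether it is the chloroplast or the mitochondrial enzyme.

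Another ATP synthase delta-bin probe, bf_mxlfxxxx_0066e02.t3m.scf, which is no member because the drought list does not hold it, read 10.35 and 10.15 in WT control, 9.70 and 9.82 in WT drought, 11.52 and 11.39 in *Stpfld252* control and a mean of 11.03 in *Stpfld252* drought. It lies outside the 2-fold limit of the list, with changes of -0.49 and -0.43. The members nearest the 2-fold limit from inside were MICRO.9133.C3, at -1.01, and cSTB47M21TH, an LHCII protein, at -1.02, both in WT.

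Probes of carbon metabolism from the same drought list had changes of the same sign at their medians. Of the 28 Calvin cycle probes, 26 passed as lower in WT drought and 2 in *Stpfld252*, with medians of -1.49 and -0.26, and the average difference between the lines had a median of 0.73. The 10 photorespiration probes had medians of -1.20 and -0.28 and an average difference of 0.26. The 16 antenna probes set aside had lower values in both lines, with medians of -3.06 and -1.64 and an average difference of 1.34. Within the 91 members the median average difference was 0.80 for PSI, 0.66 for PSII, 0.27 for carriers and 0.46 for ATP synthase. The 8 Rubisco small subunit probes had medians of -1.97 in WT and -0.21 in *Stpfld252*. The differences between these groups were not tested.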

How the data were processed

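RNA of 8 leaf pools was labelled with Cy3 and hybridised to the POCI potato array. The authors deposited the scanner output of Agilent Feature Extraction, version 11.5.1.1 per the file headers, with spot and background intensity per probe and flags (other) for signals well above background or saturated. They also deposited log2 values made with limma by background correction, quantile normalization and filtering (version not given in the sources used here). These served as an alternative.

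From the median spot and background intensity, background was corrected by normexp (offset 0) and arrays were quantile-normalized in limma 3.58.1 under R 4.3.3. Without control spots, probes were kept where both arrays of at least 1 group exceeded 1.1 times the 95th percentile of 153 negative control spots (36435 of 42034). One model of 4 group means was fitted over all 8 arrays with empirical Bayes moderation and Benjamini-Hochberg adjustment over all probes kept. A probe was called at an adjusted p under 0.05 and over 2-fold. Errors are SE of the fit with 2 arrays per group, p-values measure the spread between pools, and the number of arrays limits the precision. The fit was tested on simulated data.

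Members, subgroups and comparison lists were chosen with earlier results of these data known. Named probes were those with PCR primers, all members of subgroups of 11 or fewer, and in larger subgroups the 3 with the largest WT change, difference of responses and average genotype difference, plus those whose description departs from the bin. Other members named were chosen after their values were seen. Descriptions are those of the study's lists, whose columns of the authors' own comparisons were not used. Alternatives covered background offset, scaling, filter, prior, replicate block and leaving out each array.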

Additional observations from a re-analysis of the deposited data

Results flagged for a closer look

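For 5 members both drought arrays of WT moved one way from both control arrays and both of *Stpfld252* moved the opposite way. The difference was not tested, because the members were chosen on these changes. It is the drought change of *Stpfld252* minus that of WT on the log2 scale. For ferredoxin I, MICRO.11295.C1, it was 1.17, with *Stpfld252* drought above its control by 0.07 only. For the At1g74880 match bf_mxflxxxx_0033c02.t3m.scf it was 1.66, for the At4g11960 match MICRO.5555.C2 1.25, for the At3g16240 match cSTB41K8TH 1.58 and for the antifreeze glycoprotein match MICRO.12383.C1 1.81. In these 5 WT was lower and *Stpfld252* higher with drought. The values of MICRO.9842.C1, a non-photosynthetic ferredoxin, ran the other way, at -1.91, but 3 of its 4 WT arrays were not well above background, so its WT change was not measured.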

How the results depend on the processing

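Counts of members called stayed within 1.5 times under every alternative run. With single arrays left out, members lower in WT drought numbered 68 to 70 and higher 10 to 11; in *Stpfld252* 12 to 16 were lower and 17 to 18 higher. Members higher in *Stpfld252* numbered 16 to 20 on average, 6 to 7 under control and 43 to 49 under drought. The median difference of the drought changes, 0.89, ran from 0.84 to 0.92 with single arrays left out and was 0.74 with median scaling. Median scaling also moved the drought change of all probes in *Stpfld252* to a median of 0.20, against a members' median of -0.31. The fewest members lower in WT drought were 53, from the deposited values. The average genotype difference changed sign for cSTA16I11TH with median scaling, to -0.00843 (limma adjusted p = 0.96), and for bf_arrayxxx_0046h07.t7m.scf to -0.0448 with median scaling and -0.0391 with scaling of the processed signal to the 75th percentile. The cause was not tested. Other scalings turned the sign of at most 8 members in a comparison, none of them called. Over 59 named probes and 19 alternatives, 1082 values kept direction and side of the threshold, 23 lost and 12 gained significance. The losses were in bf_mxflxxxx_0005c10.t3m.scf, with 7 of the 8 single arrays left out and most other settings, bf_mxlfxxxx_0067c07.t3m.scf, MICRO.8460.C1, MICRO.9271.C1 and MICRO.5555.C2.

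The labels give the groups shared replicate numbers, but deviations of same-numbered arrays correlated between -0.112 and 0.129. With a replicate block the counts were 70 lower and 10 higher in WT drought, 13 and 18 in *Stpfld252*, and 17 higher in *Stpfld252* on average, with a median difference of the drought changes of 0.89, and no call count changed except the members higher on average at an adjusted p under 0.05, 71 in place of 72. All members but MICRO.9842.C1 were well above background on all arrays. The background offset moved the average differences of MICRO.9842.C1, bf_mxflxxxx_0070d09.t3m.scf and the plastocyanin probe MICRO.4322.C1 by over 1.5 times, to 0.93, 1.37 and 0.69 with an offset of 50.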
